A study of Homo sapiens with 6 samples.

Results

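The genes described here are 37 genes of cholesterol and fatty acid synthesis, chosen by symbol from a list of the pathway's enzymes, its sensors and its transport proteins. All 37 were found among the 63009 genes read from the FPKM table, and 35 of them had a mean of at least 1 FPKM and were tested. FPKM divides a gene's fragments by the length of its transcript and the size of the library. This sets genes on a like scale, but comparison between libraries also depends on how they are scaled, which moved the calls below. RNA was profiled in 6 libraries of ERRAS cells, which are IMR90 human lung fibroblasts transduced with H-RasV12 fused to the estrogen receptor, so that the control cells carry the construct too. Control cells were left uninduced (3 libraries), and Ras-induced cells were treated with tamoxifen for 4 days (3 libraries). The sample labels give the dose as 100 nM, and the study's methods give 100 ng/ml of 4-hydroxytamoxifen. Both groups were then arrested in mitosis with DME at 1 μM, which blocks the motor protein Eg5, and the detached mitotic cells were collected, so the values describe arrested mitotic cells of a transduced population and not a growing culture. In RNA from many cells, fewer cells that express a gene and less RNA per cell cannot be told apart.

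Cells build cholesterol from acetyl-CoA through mevalonate, the isoprenoid farnesyl pyrophosphate, squalene and lanosterol, and they build fatty acids from acetyl-CoA through malonyl-CoA. Both routes are controlled by SREBP transcription factors, which are made as membrane proteins of the endoplasmic reticulum. When membrane sterol is low, the escort protein SCAP carries SREBP to the Golgi, where it is cleaved and released to the nucleus, and when sterol is high the INSIG proteins hold SCAP back. Excess sterol in turn activates LXR, whose targets export cholesterol. Fibroblasts make their own sterol and also take it up from the serum of the medium.

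HRAS measured 1174, 1176 and 1140 FPKM in the control libraries and 1439, 1847 and 1473 FPKM in the Ras-induced libraries (log2 fold change 0.44, standard error 0.11, adjusted p = 0.0431 from limma). HRAS did not pass the test when any single library was left out (adjusted p between 0.0598 and 0.156 from limma). The table does not separate the endogenous gene from the construct. Both groups carry the fusion, which tamoxifen activates, so HRAS RNA cannot serve as a check of the labels. The libraries held the fibroblast genes COL1A1, COL1A2, VIM, PDGFRB and THY1 at summed levels of 4429 to 4965 FPKM in control and 2951 to 4074 FPKM in Ras-induced libraries, with COL1A2 and THY1 lower after induction. The 6 mitotic genes summed to 1403 to 1437 FPKM in control and 1161 to 1294 FPKM in Ras-induced libraries, and PLK1 and TOP2A were lower after induction, while CDK1 was listed at only 1.56 to 5.93 FPKM throughout. All 3 hepatocyte and all 3 endothelial markers stayed under 1 FPKM in every library. Of the 10 epithelial, blood cell and adipocyte markers only KRT5, KRT19, CD68 and FABP4 reached the minimum for testing, and none of these 4 passed. EPCAM, which was not tested, was at 0.880 to 1.80 FPKM in control and 0.167 to 0.424 FPKM in Ras-induced libraries, and PTPRC, HBB, ADIPOQ and PLIN1 were at or near 0. The part of the falls in fibroblast and mitotic genes in the results below was not tested. Relative to the first control library, the steps between low FPKM values gave a depth of 0.949 and 1.17 for controls 2 and 3 and of 1.13, 0.85 and 0.976 for the Ras-induced libraries, and no absolute depth is known.

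Between control and Ras-induced mitotic cells, 5 of the 35 tested genes passed the test, all of them higher after induction. These were INSIG2, FDFT1, SQLE, FDPS and NSDHL, of which 4 encode sterol synthesis enzymes. They made up 14.3% of the tested members, and among all 13993 tested genes 16.7% passed (11.0% of the tested genes as higher and 5.67% as lower), so the number of genes called was close to the background. No member passed as lower in limma. At an unadjusted p under 0.05 there were 9 higher members (25.7%, compared with 22.9% of all tested genes) and 1 lower member, EBP (10.7% of all tested genes were lower). Of the 35 members 25 had a positive log2 fold change, against 62.7% of all tested genes, and 21 lay above the median of all tested genes. The median log2 fold change of the members was 0.29, and that of all tested genes was 0.10.

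In 9 members every Ras-induced library was above every control library, which is 25.7% of those tested and compares with 27.1% of all tested genes. Only EBP was separated in the other direction, as were 12.8% of all tested genes. The count of called members moved with the scaling of the libraries. After quantile normalization and after scaling to a common upper quartile 1 member, INSIG2, was called, while 7.46% and 6.58% of all tested genes were called higher and 7.93% and 7.87% lower. The median of all tested genes was then 0.01 and 0.0047 on the log2 scale in place of 0.10. It also moved with single libraries. Without control 1, 2 or 3 there were 1, 0 and 6 members called higher, and without Ras-induced library 1, 2 or 3 there were 0, 7 and 1. In the same order, 4.47%, 3.87% and 8.3% of all tested genes were called higher without a control, and 4.54%, 6.57% and 3.71% without a Ras-induced library. With the replicate number as a block 10.5% of all tested genes were called higher, and 6 members were.

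**Figure D1:**
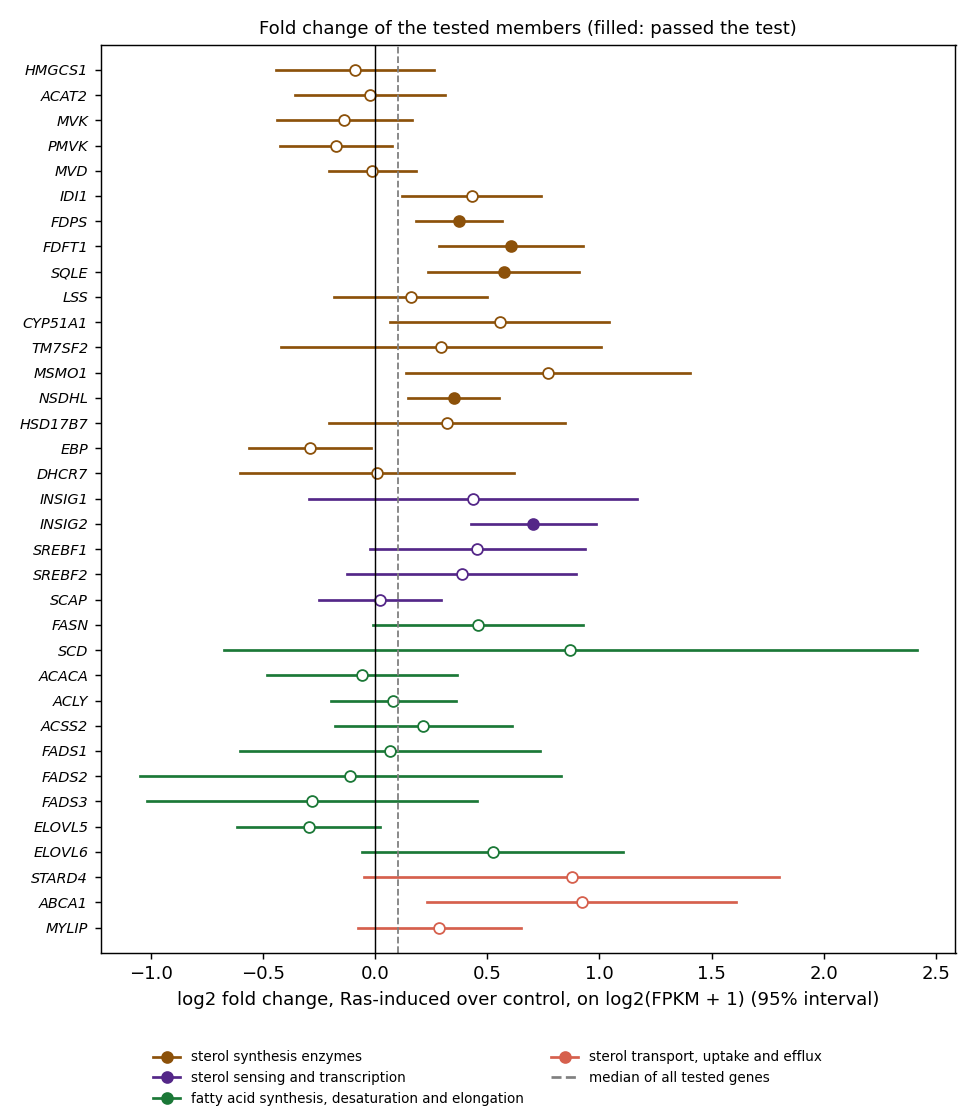
Log2 fold change of Ras-induced over control mitotic cells on the log2(FPKM + 1) scale for the 35 tested members, coloured by role, with 95% intervals from limma. Filled points mark the 5 members that passed the test, all to the right of the dashed line at the median of all tested genes, 0.10.

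The early steps of the pathway, from acetyl-CoA to isopentenyl pyrophosphate, were near the control level. The division of the pathway into early, middle and late steps follows the order of the reactions but was made after the values were seen. ACAT2, which joins acetyl-CoA units, HMGCS1, the synthase that makes HMG-CoA, the kinases MVK and PMVK, and the decarboxylase MVD had log2 fold changes between -0.18 and -0.01, and in all 5 the groups overlapped. HMGCS1, for example, measured 11.0, 10.6 and 11.7 FPKM in control and 13.0, 8.63 and 9.85 FPKM in Ras-induced libraries (difference of -0.09 on the log2 scale, 95% interval -0.45 to 0.26). MVD lay between 17.3 and 19.2 FPKM in all 6 libraries. None of the 5 passed the test, which 16.7% of all tested genes did, with adjusted p-values from limma between 0.287 and 0.930. Among all tested genes the groups were separated as higher in 27.1% and as lower in 12.8%.

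The next 4 enzymes, IDI1, FDPS, FDFT1 and SQLE, lead from isopentenyl pyrophosphate to squalene epoxide, and in all 4 the groups were separated, as higher, as they were in 27.1% of all tested genes. FDPS (chromosome 1 of GRCh37 from 155278539 to 155290457), the synthase of farnesyl pyrophosphate, measured 62.9, 59.3 and 65.6 FPKM in control and 84.7, 83.8 and 75.6 FPKM in Ras-induced libraries. This was a log2 fold change of 0.37 (SE 0.08, adjusted p = 0.0268 from limma). The call was lost in 8 of the 13 alternatives that refitted the model (a further rule, a log2 fold change of at least 1 in size, is not counted among them, and no member met it), after both scalings and without control 1 or 2 or Ras-induced library 1 or 2 among them (adjusted p up to 0.109). Farnesyl pyrophosphate is the branch point of the pathway, from which squalene, dolichol, ubiquinone and the lipid anchors of Ras proteins are all made. FDFT1 (chromosome 8 from 11653082 to 11696904), which joins farnesyl units to squalene and so commits them to sterol, measured 43.5, 40.8 and 49.5 FPKM in control and 78.4, 57.3 and 70.5 FPKM after induction. It rose 1.54-fold in mean FPKM (log2 fold change 0.61, standard error 0.13, adjusted p = 0.0292 from limma), a call lost in 6 of 13 alternatives, which were both scalings and leaving out control 1 or 2 or Ras-induced library 1 or 3 (adjusted p up to 0.106). SQLE (chromosome 8 from 126010739 to 126034525), the squalene epoxidase and a rate-limiting step of the late pathway, measured 16.9, 15.3 and 17.9 FPKM in control and 30.0, 20.9 and 25.7 FPKM after induction. This was a log2 fold change of 0.57 (SE 0.14, adjusted p = 0.0384 from limma), and SQLE was the member nearest to the threshold among those that passed. It did not pass in 10 of 13 alternatives, including both scalings and every single library left out but Ras-induced library 2 (adjusted p up to 0.132). In FDFT1 and SQLE the second Ras-induced library was the lowest of its group, though above every control. IDI1, the isopentenyl isomerase, measured 32.7, 28.8 and 30.5 FPKM in control and 49.5, 35.5 and 41.0 FPKM after induction, and was the member nearest to the threshold among those that did not pass (log2 fold change 0.43, adjusted p = 0.0667 from limma). Of the fits that left out a library, IDI1 passed without Ras-induced library 2 (adjusted p = 0.0482 from limma). Its neighbour and paralog IDI2, with which it could share reads, was at 4.11 to 5.62 FPKM in all libraries. The FDPS pseudogenes reached at most 0.354 FPKM.

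Of the 8 enzymes from squalene epoxide to cholesterol, 1 passed the test, NSDHL (12.5%, compared with 16.7% of all tested genes). NSDHL (chromosome X from 151999511 to 152038273), a dehydrogenase that removes the methyl groups at carbon 4 of the sterol ring, measured 19.8, 19.5 and 19.9 FPKM in control and 27.5, 23.5 and 25.4 FPKM in Ras-induced libraries (log2 fold change 0.35, standard error 0.08, adjusted p = 0.0367 from limma). NSDHL likewise did not pass in 10 of 13 alternatives, including both scalings and every single library left out but Ras-induced library 2 (adjusted p up to 0.291). Its partner in the same demethylation, MSMO1, had a larger difference and a wider spread. It measured 10.2, 9.74 and 17.7 FPKM in control and 24.5, 15.8 and 25.0 FPKM after induction (log2 fold change 0.77, standard error 0.27, adjusted p = 0.0945 from limma), so that the third control lay above the second Ras-induced library, and it passed without the third control (adjusted p = 0.0465 from limma). CYP51A1, the lanosterol demethylase, overlapped between the groups in the same 2 libraries, with 14.6, 15.0 and 19.7 FPKM in control and 29.8, 18.1 and 26.8 FPKM after induction (log2 fold change 0.55, adjusted p = 0.112 from limma), and passed in 1 of 13 alternatives, without the second Ras-induced library (adjusted p = 0.0470 from limma). EBP, a sterol isomerase, was the only member whose Ras-induced libraries all lay below the controls, with 29.9, 36.3 and 28.4 FPKM against 23.4, 26.6 and 26.4 FPKM (difference of -0.29 on the log2 scale, adjusted p = 0.127 from limma). LSS, TM7SF2, HSD17B7 and DHCR7 overlapped between the groups, with log2 fold changes from 0.01 for DHCR7 to 0.32 for HSD17B7. Reads of HSD17B7 could be shared with its pseudogene HSD17B7P2, listed at 0.901 to 1.74 FPKM.

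**Figure D2:**
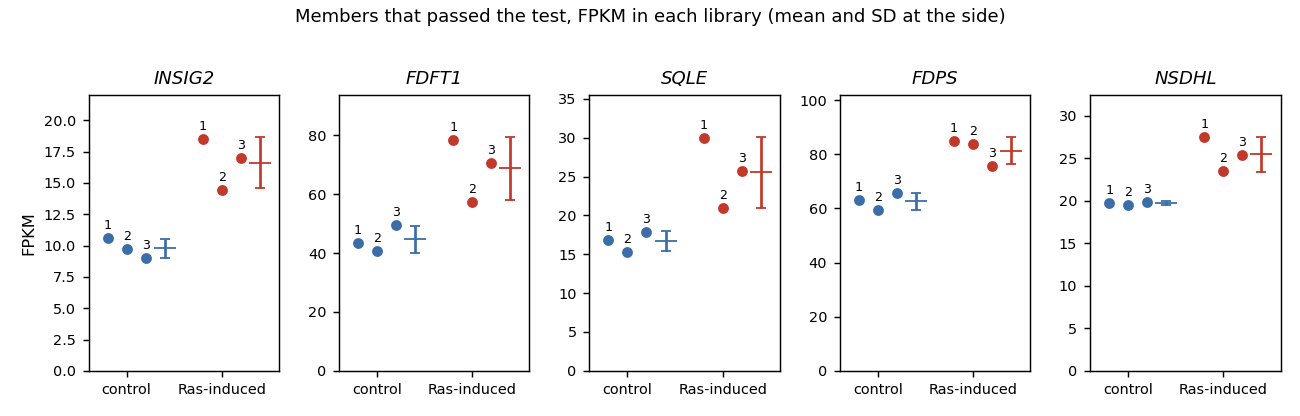
FPKM in each library for the 5 members that passed the test, with the library number beside each point and the mean and SD (n = 3) at the side. Every Ras-induced value lies above every control value, and in INSIG2, FDFT1, SQLE and NSDHL the second Ras-induced library is the lowest of its group.

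Among the sterol sensors, INSIG2 and INSIG1 differed in pattern. INSIG2 (chromosome 2 from 118846028 to 118868573), which holds SCAP and SREBP in the endoplasmic reticulum when sterols are present, had 10.6, 9.76 and 9.03 FPKM in control and 18.5, 14.4 and 17.0 FPKM in Ras-induced libraries. It rose 1.70-fold in mean FPKM, with the smallest adjusted p of all members (log2 fold change 0.70, standard error 0.12, 95% interval 0.43 to 0.98, adjusted p = 0.0118 from limma). The adjusted p of INSIG2 was 0.0597 without the second control, 0.0502 without the first and 0.0607 without the third Ras-induced library. INSIG1, a paralog of the same function that is itself a target of SREBP, had 11.9, 13.0 and 20.9 FPKM in control and 30.4, 14.3 and 19.5 FPKM after induction. The third control of INSIG1 was above 2 of the 3 Ras-induced libraries, and its difference did not pass the test (log2 fold change 0.44, 95% interval -0.29 to 1.17, adjusted p = 0.366 from limma). Whether the differences of the 2 genes were unequal was not tested.

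The transcription factor genes SREBF1, which drives mainly fatty acid genes, and SREBF2, which drives mainly sterol genes, also overlapped between the groups. SREBF1 measured 18.1, 18.4 and 29.8 FPKM in control and 32.9, 26.5 and 30.5 FPKM after induction (log2 fold change 0.46, 95% interval -0.03 to 0.94, adjusted p = 0.167 from limma). It passed in 1 of 13 alternatives, without the third control (adjusted p = 0.0257 from limma), and in the others its adjusted p reached 0.383. SREBF2 measured 12.9, 14.8 and 19.1 FPKM in control and 26.6, 15.7 and 20.3 FPKM after induction (adjusted p = 0.257 from limma). SCAP stayed between 14.6 and 18.5 FPKM in all libraries, with a log2 fold change of 0.02 (95% interval -0.25 to 0.29).

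To set the sequences beside these values, promoters were read from RefSeq on GRCh38.p14, a later build than the hg19 of the FPKM table. Each runs from 250 bases before the annotated start to 50 after it. Sterol gene promoters are known to bind SREBP together with the CCAAT-binding factor NF-Y. The letters CCAAT were found on either strand in 24 of the 32 members with a promoter entry (75.0%) and in 12 of the 14 sterol synthesis enzymes, compared with 39.7% of the 27305 genes in the table. They were missing from the entries of PMVK, CYP51A1, INSIG2, SREBF1, SCAP, FADS1, ELOVL6 and ABCA1. ACAT2, FDFT1, SQLE, FASN and ABCG1 had no promoter entry, so FDFT1 and SQLE, which passed the test, are not in these counts. A sterol response element written TCACNCCAC was present in 1 member, SREBF2, and in 1.39% of all genes. The looser form TCACNCNAC, which includes the first, was present in FDPS, HSD17B7, SREBF2, ACSS2 and FADS2, or 15.6% of the members, compared with 3.13% of all genes. The motifs were chosen after the expression values were seen, and a match of letters is a description and not a binding site. The promoters of 3 members that passed the test are shown, with that of SREBF2 for its element, 5′ to 3′ on the strand of the gene. Capitals mark CCAAT on either strand and the element in either form. FDPS holds 3 copies of CCAAT and 1 of the looser element. NSDHL holds 5 copies of CCAAT, a pair of which overlap as a palindrome. INSIG2, of whose 2 entries the first is shown, holds no match, and SREBF2 holds 1 copy of each.
FDPS (chr1:155308616-155308915, + strand): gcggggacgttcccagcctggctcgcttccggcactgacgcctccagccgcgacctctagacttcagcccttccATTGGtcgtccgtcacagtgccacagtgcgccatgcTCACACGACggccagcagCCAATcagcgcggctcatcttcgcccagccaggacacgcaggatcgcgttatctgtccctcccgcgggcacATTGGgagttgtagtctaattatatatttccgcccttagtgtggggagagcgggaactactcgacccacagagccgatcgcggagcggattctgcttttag
NSDHL (chrX:152830813-152831112, + strand): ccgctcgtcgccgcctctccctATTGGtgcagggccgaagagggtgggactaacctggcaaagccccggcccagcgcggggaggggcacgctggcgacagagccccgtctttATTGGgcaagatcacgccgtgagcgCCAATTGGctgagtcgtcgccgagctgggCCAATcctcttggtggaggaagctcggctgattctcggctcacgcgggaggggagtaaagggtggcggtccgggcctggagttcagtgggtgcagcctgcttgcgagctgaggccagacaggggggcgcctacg
INSIG2 (chr2:118088221-118088520, + strand): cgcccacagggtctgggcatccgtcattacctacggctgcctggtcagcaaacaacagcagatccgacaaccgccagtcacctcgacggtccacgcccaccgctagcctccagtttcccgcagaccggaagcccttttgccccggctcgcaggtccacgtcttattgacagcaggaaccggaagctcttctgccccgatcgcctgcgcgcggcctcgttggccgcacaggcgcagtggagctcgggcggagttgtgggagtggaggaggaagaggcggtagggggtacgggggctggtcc
SREBF2 (chr22:41832855-41833154, + strand): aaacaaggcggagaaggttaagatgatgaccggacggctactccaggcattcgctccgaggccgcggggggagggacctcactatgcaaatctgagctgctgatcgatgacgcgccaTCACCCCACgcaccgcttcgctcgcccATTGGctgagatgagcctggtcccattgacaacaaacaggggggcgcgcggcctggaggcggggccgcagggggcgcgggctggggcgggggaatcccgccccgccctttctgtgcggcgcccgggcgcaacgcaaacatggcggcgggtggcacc

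None of the 10 fatty acid genes passed the test, which 16.7% of all tested genes did, with adjusted p-values from limma between 0.156 and 0.896 and none under an unadjusted p of 0.05. FASN, the fatty acid synthase, was the only gene of this group whose libraries were separated, with 24.9, 37.8 and 43.9 FPKM in control and 47.2, 46.8 and 49.8 FPKM after induction (log2 fold change 0.46, 95% interval -0.01 to 0.93, adjusted p = 0.156 from limma). ACLY and ACSS2, which supply acetyl-CoA from citrate and acetate, and ACACA, which carboxylates it to malonyl-CoA, had log2 fold changes of 0.08, 0.21 and -0.06. The spread between libraries of a group was wide in this group. The median standard error of the log2 fold change was 0.22, compared with 0.14 for all tested genes and 0.14 for the sterol synthesis enzymes.

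SCD, the stearoyl-CoA desaturase that makes oleate, varied most. It measured 11.4, 14.2 and 53.0 FPKM in the 3 controls and 60.3, 19.0 and 49.9 FPKM in the 3 Ras-induced libraries. The third control was 4.13 times the mean of the other controls, and the second Ras-induced library was 0.345 times the mean of the others. The groups overlapped, and the interval of the log2 fold change ran from -0.68 to 2.42 (estimate 0.87, adjusted p = 0.395 from limma), so neither a fall nor a rise of several-fold can be told from these libraries. The fatty acid desaturases FADS1, FADS2 and FADS3, which lie side by side on chromosome 11, showed the same order. FADS2 had 62.5, 63.2 and 133.2 FPKM in control and 109.3, 47.0 and 80.9 FPKM after induction (difference of -0.11 on the log2 scale, 95% interval -1.05 to 0.83). FADS1 measured 27.4, 24.4 and 45.6 FPKM in control and 42.3, 24.3 and 34.3 FPKM after induction. FADS3 was at 11.5, 9.93 and 17.1 FPKM in control and 11.0, 6.36 and 14.6 FPKM after induction. In all 3 the third control was the highest of the 6 libraries. FADS1 and FADS2 overlap on opposite strands in the annotation, and the library kit does not mark the strand, so their shared reads cannot be told apart. The elongases differed in sign. ELOVL5, which lengthens polyunsaturated fatty acids, had 74.3, 66.2 and 92.4 FPKM in control and 60.1, 59.3 and 68.1 FPKM after induction (difference of -0.30 on the log2 scale, adjusted p = 0.173 from limma). ELOVL6, which lengthens palmitate, had 15.9, 11.6 and 17.7 FPKM in control and 19.5, 17.1 and 30.8 FPKM after induction (log2 fold change 0.52, adjusted p = 0.186 from limma).

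**Figure D3:**
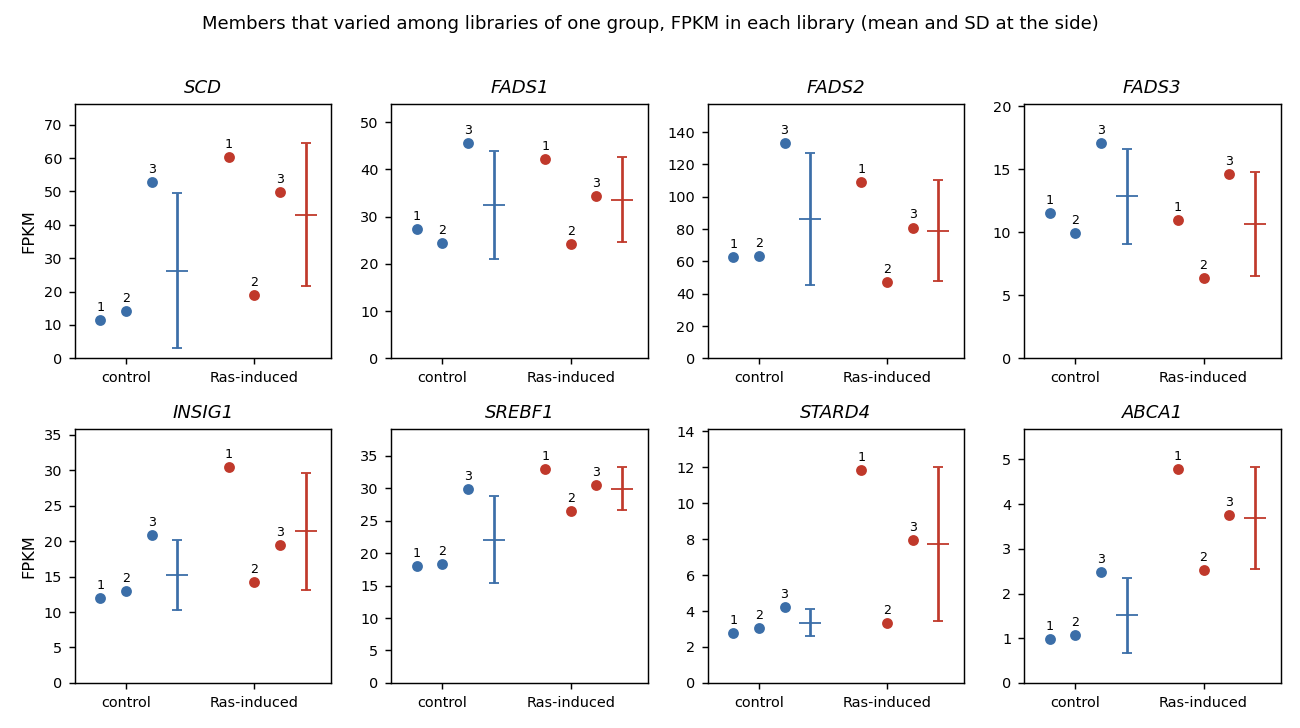
FPKM in each library for 8 members with a wide spread within groups, with the library number beside each point and the mean and SD (n = 3) at the side. The third control is the highest control and the second Ras-induced library the lowest Ras-induced one in all 8 genes.

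The same order of libraries ran through most of the members. It was noticed in the values and is given as a description. In 28 of the 35 tested members the third control was the highest control (80.0%, compared with 31.0% of all tested genes), and in 26 the second Ras-induced library was the lowest of its group (74.3%, compared with 38.9%). Both held in 23 members (65.7%, compared with 15.7%). In 9 of the 10 fatty acid genes both held, ACSS2 being the exception, as they did in 9 of the 17 sterol synthesis enzymes. The size of the deviation also stood apart. The third control was at least 1.5 times the mean of the other controls in 9 members (25.7%, compared with 5.33% of all tested genes), and the second Ras-induced library was at most 0.667 times the mean of the others in 13 members (37.1%, compared with 7.76%). In 23 members (65.7%) the third control measured higher than the second Ras-induced library, compared with 39.0% of all tested genes and 53.7% of the 82 tested genes of the related lists. After upper-quartile scaling this held in 27 members, compared with 50.9% of all tested genes. Among related genes that are not members, both held in 8 of 16 genes of further fatty acid elongation and activation (50.0%). They held in 6 of 13 of the LXR axis and sterol storage (46.2%) and 4 of 13 of SREBP processing (30.8%). Near or below the 15.7% of all tested genes were 3 of 16 of fatty acid oxidation (18.8%), 2 of 13 of triglyceride synthesis (15.4%) and 0 of 11 of the isoprenoid branch. The early enzymes ACAT2 and PMVK were among those that did not follow the order, with the third control the lowest of its group in both. After upper-quartile scaling and after quantile normalization both held again in 23 members, compared with 19.4% and 16.9% of all tested genes. The third control had the highest relative depth of the 6 libraries, 1.17, and the second Ras-induced library the lowest, 0.85, and the part of depth in this order was not tested.

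**Figure D4:**
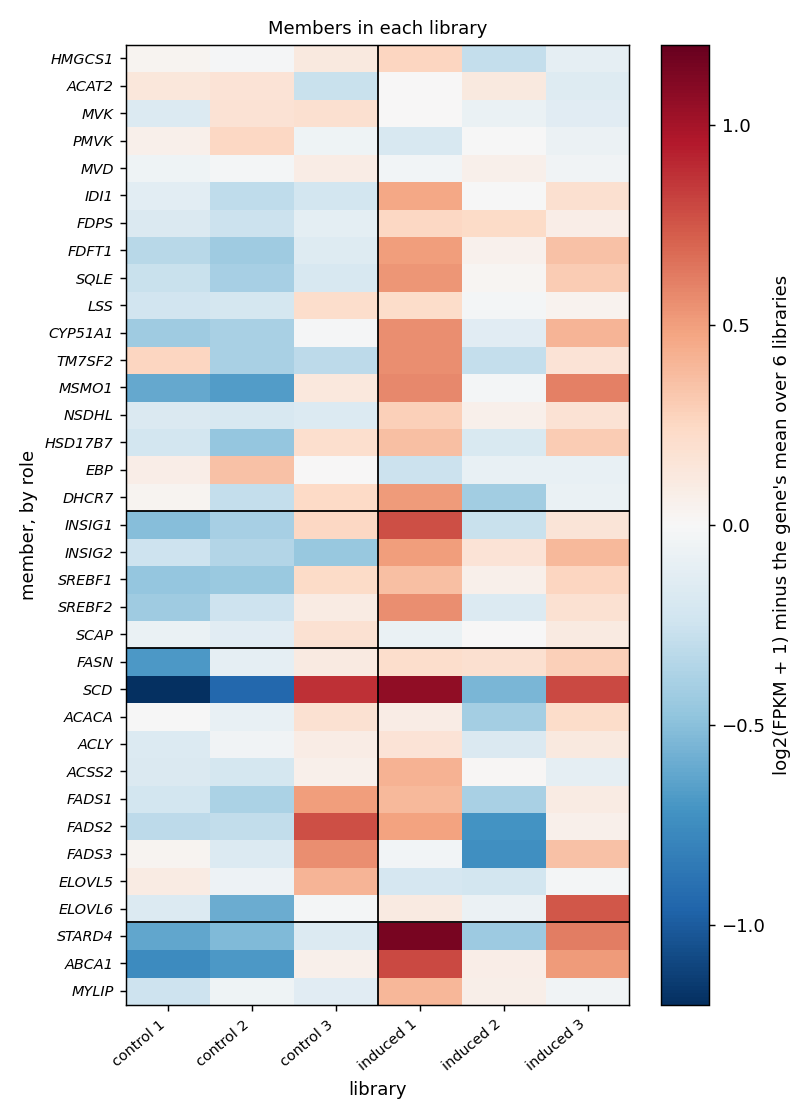
Deviation of log2(FPKM + 1) from the gene's mean over the 6 libraries, with the 35 tested members in rows by role and the libraries in columns (red higher, blue lower). In SCD, FADS1, FADS2 and INSIG1 the third control is above the gene's mean and the second Ras-induced library below it, and the latter is below the mean in 22 of the 35 members.

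The genes of sterol transport and efflux were expressed at low levels. None of the 3 that were tested passed, compared with 16.7% of all tested genes. STARD4, which carries sterol between membranes and is a target of SREBP, measured 2.79, 3.05 and 4.23 FPKM in control and 11.9, 3.32 and 7.96 FPKM after induction (log2 fold change 0.88, 95% interval -0.05 to 1.80, adjusted p = 0.167 from limma). It passed in 1 of 13 alternatives, without the second Ras-induced library (adjusted p = 0.0346 from limma), and in the others its adjusted p reached 0.375. ABCA1, the exporter of cholesterol to apolipoproteins, had 0.976, 1.07 and 2.48 FPKM in control and 4.79, 2.53 and 3.75 FPKM after induction. It had the largest log2 fold change of the 35 members, 0.92, and its groups did not overlap, but the third control and the second Ras-induced library were close (standard error 0.29, adjusted p = 0.0739 from limma). ABCA1 passed in 1 of 13 alternatives, without the third control (adjusted p = 0.0409 from limma), and in the others its adjusted p reached 0.20. MYLIP, the ubiquitin ligase of lipoprotein receptors, had 3.29, 3.94 and 3.66 FPKM in control and 5.73, 4.37 and 3.95 FPKM after induction, also without overlap (log2 fold change 0.29, adjusted p = 0.239 from limma). ABCG1, a further sterol exporter and like ABCA1 and MYLIP a target of LXR, was under the minimum for testing, with 0.525, 0.333 and 1.24 FPKM in control and 1.38, 0.609 and 1.43 FPKM after induction. NPC1L1, the intestinal cholesterol transporter, was listed at 0 in 5 libraries and at 0.0167 FPKM in the third Ras-induced library. By level, the members ranged in control cells from FADS2 at 86.3 ± 40.7 FPKM (SD, n = 3), ELOVL5 at 77.6 ± 13.4 FPKM (SD, n = 3) and ACLY at 67.5 ± 5.98 FPKM (SD, n = 3) down to, above NPC1L1, TM7SF2 at 0.938 ± 0.504 FPKM (SD, n = 3) and ABCG1 at 0.699 ± 0.477 FPKM (SD, n = 3). FADS2 differed from ELOVL5 and from ACLY by less than its own SD, and ELOVL5 differed from ACLY by less than the SD of ELOVL5, but by more than that of ACLY.

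Related genes that are not members were taken from lists written from general knowledge of the pathways. Of the 82 tested 6 passed as higher and 6 as lower, or 14.6%, compared with 16.7% of all tested genes, and in each list with a call the share was between 12.5% and 23.1%. None of the 11 isoprenoid branch enzymes, which use farnesyl pyrophosphate for dolichol, ubiquinone and protein prenylation, passed the test in limma, although 5 of them, all higher, had an unadjusted p under 0.05, compared with 22.9% of all tested genes that were higher at this threshold. Of 13 genes for SREBP processing and INSIG turnover 2 passed (15.4%), both lower. ERLIN1, which takes part in the degradation of sterol-regulated proteins of the endoplasmic reticulum, fell after induction to 27.3 ± 4.40 FPKM, against 52.4 ± 5.17 FPKM in control cells (SD, n = 3 each, log2 fold change -0.93, adjusted p = 0.00817 from limma). SEC23A, a coat protein of the vesicles that leave the endoplasmic reticulum, fell by 0.27 on the log2 scale, with 117.8 ± 2.62 FPKM in control cells and 97.4 ± 5.19 FPKM after induction (SD, n = 3 each), a call lost in 11 of 13 alternatives, among them every single library left out. The other 11 genes of this list did not pass.

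Of the 16 tested genes of further fatty acid elongation and activation 1 passed as higher and 2 as lower. ELOVL2, the elongase of very long polyunsaturated fatty acids, fell from 9.96, 9.97 and 13.5 FPKM in control to 0.995, 1.38 and 1.49 FPKM after induction. This difference of -2.40 on the log2 scale (standard error 0.16, adjusted p = 0.0013 from limma) was larger than that of any member. HACD1, a dehydratase of the same cycle that the table lists as PTPLA, fell from 25.7, 27.1 and 20.4 FPKM to 13.0, 12.8 and 11.8 FPKM (difference of -0.90 on the log2 scale, adjusted p = 0.00699 from limma). ELOVL4, the elongase of the longest saturated chains, rose from 4.19, 4.31 and 5.41 FPKM to 9.35, 7.48 and 10.4 FPKM (log2 fold change 0.83, adjusted p = 0.0154 from limma). The groups were separated in all 3, and elongases of the same family thus passed in opposite directions while the members ELOVL5 and ELOVL6 passed in neither. Of the 13 tested genes of the LXR axis and sterol storage 1 passed in each direction. SOAT1, which esterifies cholesterol for storage, fell after induction to 47.1 ± 2.70 FPKM, against 71.1 ± 9.72 FPKM in control cells (SD, n = 3 each, log2 fold change -0.58, adjusted p = 0.021 from limma). STARD3, a sterol carrier of late endosomes, rose after induction to 40.3 ± 2.31 FPKM, against 32.0 ± 1.64 FPKM in control cells (SD, n = 3 each, log2 fold change 0.33, adjusted p = 0.0399 from limma), a call lost in 10 of 13 alternatives, among them every single library left out. ELOVL4 lost the call without control 1 or 2 or Ras-induced library 1 or 3, SOAT1 lost it without control 1 or any Ras-induced library, and ERLIN1, ELOVL2 and HACD1 passed in all 13 refitted alternatives, of which only ELOVL2 also had a log2 fold change of at least 1 in size.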

How the data were processed

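Poly(A) RNA was sequenced as paired-end reads. Per the labels and the study's methods, the authors trimmed reads with Trim Galore 0.3.0, aligned them to hg19 with TopHat2 and Ensembl build 73 junctions, and deposited FPKM values from Cufflinks, 1 column for each library; scaling between libraries is not given in the sources used here. A deposited Cuffdiff comparison (group FPKM, fold changes, p-values and q-values) was not used. The 18 unnamed columns were not used as libraries. The 120 genes with more than 6 values and 1 row without numbers were left out. For 3 members with a repeated symbol the row of highest mean was kept, and the other rows were at 0.

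The minimum for testing was a mean of 1 FPKM over the libraries. Values were taken as log2(FPKM + 1), which understates changes of low genes, and compared with limma 3.58.1 in R 4.3.3 (lmFit, eBayes with a trend, two-sided p adjusted by Benjamini-Hochberg over 13993 genes, threshold 0.05). Column names give a group with a number, not a sample. The study states that the experiment was repeated independently 3 times. The procedure was tested on simulated data from these 13993 genes, where it called 154 of 200 changed genes and 13 others. How often it calls differences of the sizes seen in the members was not tested. The members and lists were chosen with earlier results of these data known. Values in every library are given for members that passed and for their paralogs and partners, and related genes are named when they passed, at most 3 a list. The result of 1 gene that passed is not reported here. Other members were named after their values were seen. Coordinates are from GENCODE 44 on GRCh37, the same build as hg19, and promoters from RefSeq. Alternatives were a pseudocount of 0.1, a minimum mean of 0.1 FPKM or none, quantile and upper-quartile scaling, no trend, a block for the replicate number, each library left out, and a minimum absolute log2 fold change of 1. Python 3.11.15 with pandas 2.3.3, numpy 2.4.6 and matplotlib 3.10.9 made tables and figures.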

Additional observations from a re-analysis of the deposited data

How the results depend on the processing

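With 3 libraries a group and no known absolute depth, the calls were few and depended on the settings, whereas no called value changed sign under any alternative. The 5 members called higher became 2 without a filter on low values, 1 after quantile or upper-quartile scaling, 3 without the trend and 0 under a strict rule that asked for a log2 change of 1 or more in size. For the sterol synthesis enzymes the 4 calls became 1, 0, 0, 2 and 0 in the same settings, and the 1 call among the sensors became 0 under the strict rule. The median log2 fold change of the members was 0.29, and ranged from 0.158 to 0.351 when single libraries were left out. Leaving out single libraries gave 0 to 7 members called higher, 0 to 5 sterol synthesis enzymes, 0 to 2 sensors, 0 fatty acid genes and 0 or 1 transport gene. With the replicate block 6 members were called, among them ELOVL6, IDI1 and MSMO1, which gave 1 fatty acid gene, while FDPS and NSDHL were not called (adjusted p = 0.0508 and 0.0514 from limma). Libraries with the same number deviated from their groups with correlations across genes of -0.00266, 0.0434 and 0.0481. For libraries with unlike numbers the correlations ran from -0.068 to 0.0311. Such small values cannot decide whether libraries with the same number came from the same repeat.

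In the related lists, a pseudocount of 0.1 gave 1 isoprenoid branch call in place of 0, and leaving out libraries gave 0 or 1. The 2 calls of SREBP processing and INSIG turnover became 1 with a pseudocount of 0.1, a minimum mean of 0.1 FPKM, no filter, no trend, the replicate block or any library left out, and 0 under the strict fold change. The 3 calls of further elongation and activation became 1 under the strict fold change and 2 to 3 without single libraries. The 2 calls of the LXR axis became 1 without a filter, after either scaling and without the trend, 0 under the strict fold change, and 0 to 1 without single libraries. The 3 calls of triglyceride genes became 1 without a filter and after either scaling, 0 under the strict fold change, and 1 to 2 without single libraries. The 2 calls of fatty acid oxidation became 1 with a minimum mean of 0.1 FPKM, 0 without a filter and under the strict fold change, and 0 to 5 without single libraries. Fewer samples or more genes tested are part of how these alternatives are built; beyond that the cause was not tested. Over the named single genes 505 values stayed on their side of the threshold, 110 calls were lost and 9 were gained.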

Other observations

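Lists of lipid storage and breakdown were also compared. Of the 13 tested genes of triglyceride synthesis and lipid droplets 2 passed the test as higher and 1 as lower in Ras-induced mitotic cells (23.1%, compared with 16.7% of all tested genes). MGLL, the lipase that releases fatty acids from monoglycerides, fell from 116.8, 108.2 and 109.7 FPKM in control to 69.3, 66.8 and 81.3 FPKM after induction (difference of -0.62 on the log2 scale, standard error 0.09, adjusted p = 0.00963 from limma). PNPLA2, which starts the breakdown of triglycerides, rose after induction to 25.3 ± 0.606 FPKM, against 20.5 ± 0.385 FPKM in control cells (SD, n = 3 each, log2 fold change 0.29, adjusted p = 0.0378 from limma). LPIN2, a phosphatidate phosphatase, rose after induction to 21.0 ± 3.50 FPKM, against 13.5 ± 1.27 FPKM in control cells (SD, n = 3 each, log2 fold change 0.59, adjusted p = 0.034 from limma).

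Of the 16 genes of fatty acid oxidation 2 passed (12.5%), both higher. ETFB, a subunit of the flavoprotein that takes electrons from the oxidation of fatty acids, rose after induction to 37.3 ± 2.01 FPKM, against 27.2 ± 1.40 FPKM in control cells (SD, n = 3 each, log2 fold change 0.44, adjusted p = 0.0164 from limma). MGLL passed in all 13 alternatives that refitted the model but did not reach a log2 fold change of 1 in size, and neither did ETFB, LPIN2 or PNPLA2. Of the 13 ETFB passed in 9, LPIN2 in 5 and PNPLA2 in 2, and PNPLA2 did not pass when any single library was left out. Among those fits ETFB did not pass without control 1 or 2 or Ras-induced library 3, and LPIN2 passed only without Ras-induced library 2.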
